A study of Mus musculus with 12 samples.

Results

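The vesicle and melanosome trafficking genes of cultured mouse melanocytes were examined on 12 Illumina Mouse-6 BeadChip arrays. A gene was included when the number in the probe's name, read as an NCBI mouse gene ID, belonged to a protein-coding gene with a symbol of the Rab, Vps, Snx, Stx, Vamp, Chmp, Trappc, Bloc1s or Atp6v series or of the AP adaptor complexes. The rule found 96 genes with 117 probes among the 8102 genes that could be named this way. A probe entered the tests if it exceeded the negative control beads (detection p under 0.01) on any array, here called above background, which 63 of the 96 genes (70 of the 117 probes) did. The tested genes comprised 18 of 28 Rab genes, 6 of 11 Vps, 8 of 9 Snx, 3 of 6 Stx, 1 of 2 Vamp, 4 of 5 Chmp, 6 of 9 Trappc, the Bloc1s gene Bloc1s3, 8 of 12 Atp6v and 8 of 13 AP genes. The symbol rule also takes in Rab3gap2, Rab11fip1, Rab11fip4 and Rab3il1, which regulate or bind Rab proteins but are not Rab GTPases.

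The cultures were enriched primary melanocytes of FVB/129/OlaHsd/C57Bl/6 mice, kept in normoxia or for 12 h in 1% O2. In each oxygen level 3 groups of 2 arrays were profiled: ATF2 mutant cells with 4-OHT, ATF2 mutant cells without 4-OHT, and WT cells without 4-OHT. All cultures were Ink4a-/- and received doxycycline to switch on mutant NRAS, so these changes are shared by every group. The mutant cells carried floxed Atf2, and a Cre under the tyrosinase promoter, which the WT cells carried too, is activated in melanocytes by 4-OHT and leaves ATF2 without its DNA binding domain. The labels give the genotype ATF2-/- to the mutant arrays with and without 4-OHT alike. No WT culture with 4-OHT was among the samples, so 4-OHT and recombination cannot be told apart. The labels do not say whether 2 replicate arrays came from separate animals, so the p-values measure the spread between these arrays, which may be technical.

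Melanosomes are lysosome-related organelles. Their cargo leaves the Golgi and early endosomes in coated carriers that AP adaptors and BLOC complexes form. Rab GTPases mark each compartment and recruit motors and tethers, TRAPP and Vps complexes tether the carriers, and syntaxins and VAMPs fuse them. Sorting nexins return proteins from endosomes, ESCRT-III (the Chmp proteins) buds vesicles into endosomes, where the pigment protein PMEL is sorted, and the V-ATPase (Atp6v) acidifies the lumen, on which pigment formation depends.

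Several measures moved with the groups and bear on every result below. All 4 named pigment markers, of 14 listed, were above background on each array, with a summed normalized intensity of 35356 to 40269 units. Quantile normalization gives every array the same top values, so a sum of such bright probes had little room to vary. It shows melanocyte RNA on every array but not the share of melanocytes. The 6 named skeletal muscle markers summed to 7049 to 8413 units on the 6 arrays of mutant without 4-OHT in normoxia and of mutant with 4-OHT in either oxygen level, where all 6 were above background. On the other 6 arrays they summed to 321 to 532 units with 2 of 6 above background, and Chrna1, Chrng and Myh7 were not above background there. Fibroblast markers (7 named) summed to 460.5 to 622 units in WT and 699.9 to 956 units in mutant cultures, while Col1a1, Col1a2, Col3a1 and Postn were above background on no array. The 3 named endothelial markers summed to 186 to 304 units in the groups with high muscle markers and 79.1 to 105 units in the others, with Pecam1 above background on no array. The 5 named keratinocyte markers summed to 344 to 613 units in WT, 247 to 393 units in the groups with high muscle markers and 166 to 170 units in hypoxic mutant without 4-OHT, with Krt15, Dsg3 and Sfn above background on no array. The part of such cells in the results was not tested. Xist was above background on all 8 mutant arrays and on 0 of 4 WT arrays, and Eif2s3y showed the reverse, so genotype and sex of the cultures cannot be told apart. The Atf2 probe was above background on no array and gives no check of the deletion. In these bulk cultures, fewer cells of a type and less RNA per cell cannot be told apart.

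Across the trafficking genes, 23 of 63 (36.5%) passed an adjusted p of 0.05 in at least 1 of 9 comparisons, and 40 passed in none. Of all 14906 probes tested 50.1% passed in at least 1, and of the 4176 tested probes that could be named 45.9% did. The trafficking genes were all named, so 45.9% is the closer measure, also where 50.1% is given below. In normoxia, mutant with 4-OHT against WT changed 11 genes (4 higher, 7 lower, 17.5% of 63), against 22.8% of all probes. Mutant with 4-OHT against mutant without changed 5 (3 higher, 2 lower, 7.94%), against 5.98% of all probes. Mutant without 4-OHT against WT changed 6 (2 higher, 4 lower, 9.52%), against 14.3% of all probes. In hypoxia the same comparisons changed 2 genes (both higher, 3.17% against 12.7% of all probes), 10 genes (4 higher, 6 lower, 15.9% against 28.6%) and 10 genes (4 higher, 6 lower, 15.9% against 24.8%). Hypoxia against normoxia changed 0 genes in mutant with 4-OHT (0.0268% of all probes), 5 genes in mutant without 4-OHT (3 higher, 2 lower, 7.94% against 12.3%) and 7 genes in WT (4 higher, 3 lower, 11.1% against 10.2%). For the count of 0, limma gave 2 genes at an unadjusted p under 0.05. Ap3m1 is counted among the 23 genes, the 10 with against without 4-OHT in hypoxia, and the 5 and 7 with hypoxia. It entered the tests only through 2 arrays, both of groups in which it was called higher, so its calls are not support for a change. Tests of whether a comparison itself differed between oxygen levels called 0 genes for mutant with 4-OHT against WT (0.409% of all probes; 11 genes at an unadjusted p under 0.05), 1 for mutant with against without 4-OHT (5.17%) and 6 for mutant without 4-OHT against WT (11.8%). The share of trafficking genes called thus lay below that of all probes in 10 of the 12 tests, which reuse the same 6 groups. The 10 include the tests with 0 genes called, where 0.0268% and 0.409% of all probes passed. At such shares a set of 63 genes can hardly show a call, so a lower share there says little. Over the 4176 tested probes that could be named, the share called was 20.2% in the first comparison, 24.6% for mutant with against without 4-OHT in hypoxia and 22.2% for mutant without 4-OHT against WT in hypoxia, and the trafficking share lay below that of named probes in 8 of the 12 tests.

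**Figure D1:**
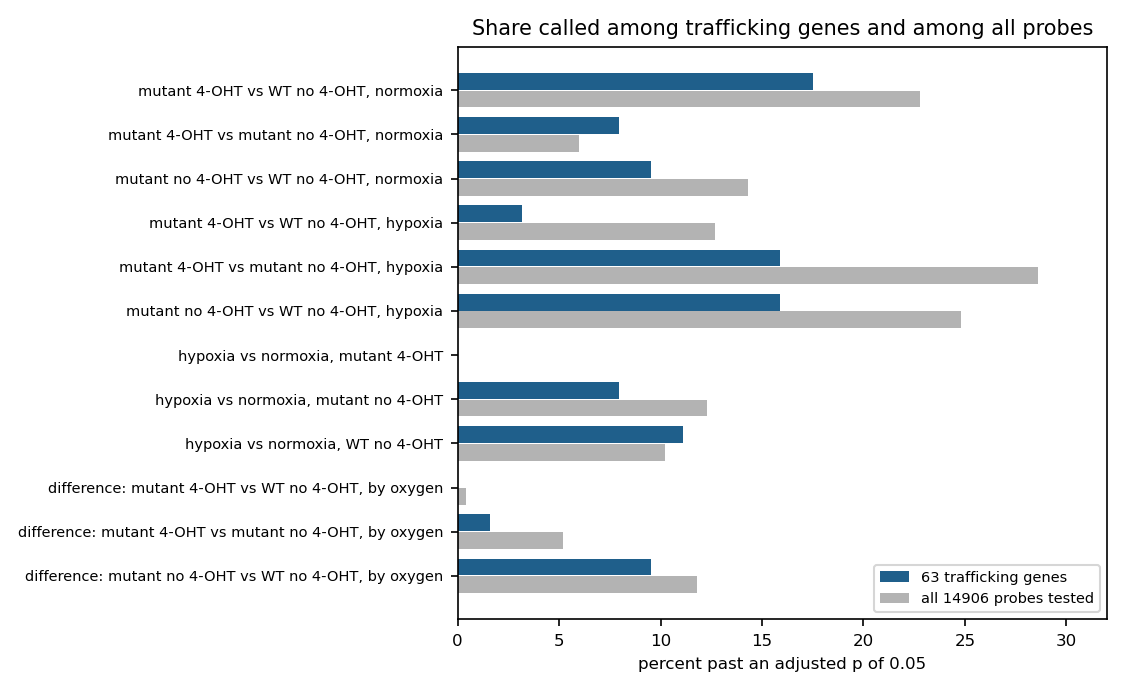
Percent of the 63 trafficking genes (blue) and of all 14906 probes tested (grey) past an adjusted p of 0.05 in each comparison. The trafficking share is above the grey bar only for mutant with against without 4-OHT in normoxia (7.94% and 5.98%) and for hypoxia in WT (11.1% and 10.2%). The share for hypoxia in WT includes Ap3m1, whose calls are not support for a change.

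These counts depended on single arrays. In the first comparison 4 genes were called without either WT normoxia array, 10 without replicate 1 of mutant with 4-OHT in normoxia and 23 without its replicate 2. The count in mutant with 4-OHT under hypoxia rose from 0 to 9 without that same replicate 2. The median log2 fold change of the 63 genes lay between -0.08 and 0.09 in all 9 comparisons, beside -0.06 to 0.04 for all probes. Medians of single families reached -0.51 over 8 AP genes (3 called lower) for mutant with against without 4-OHT in hypoxia, and -0.47 over 3 Stx, -0.42 over 4 Chmp and 0.37 over 8 Snx genes for mutant with 4-OHT against WT in normoxia. Of the 3 AP genes called, Ap3m1 was above background on 1 array of the higher group and on 0 of the lower.

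**Figure D2:**
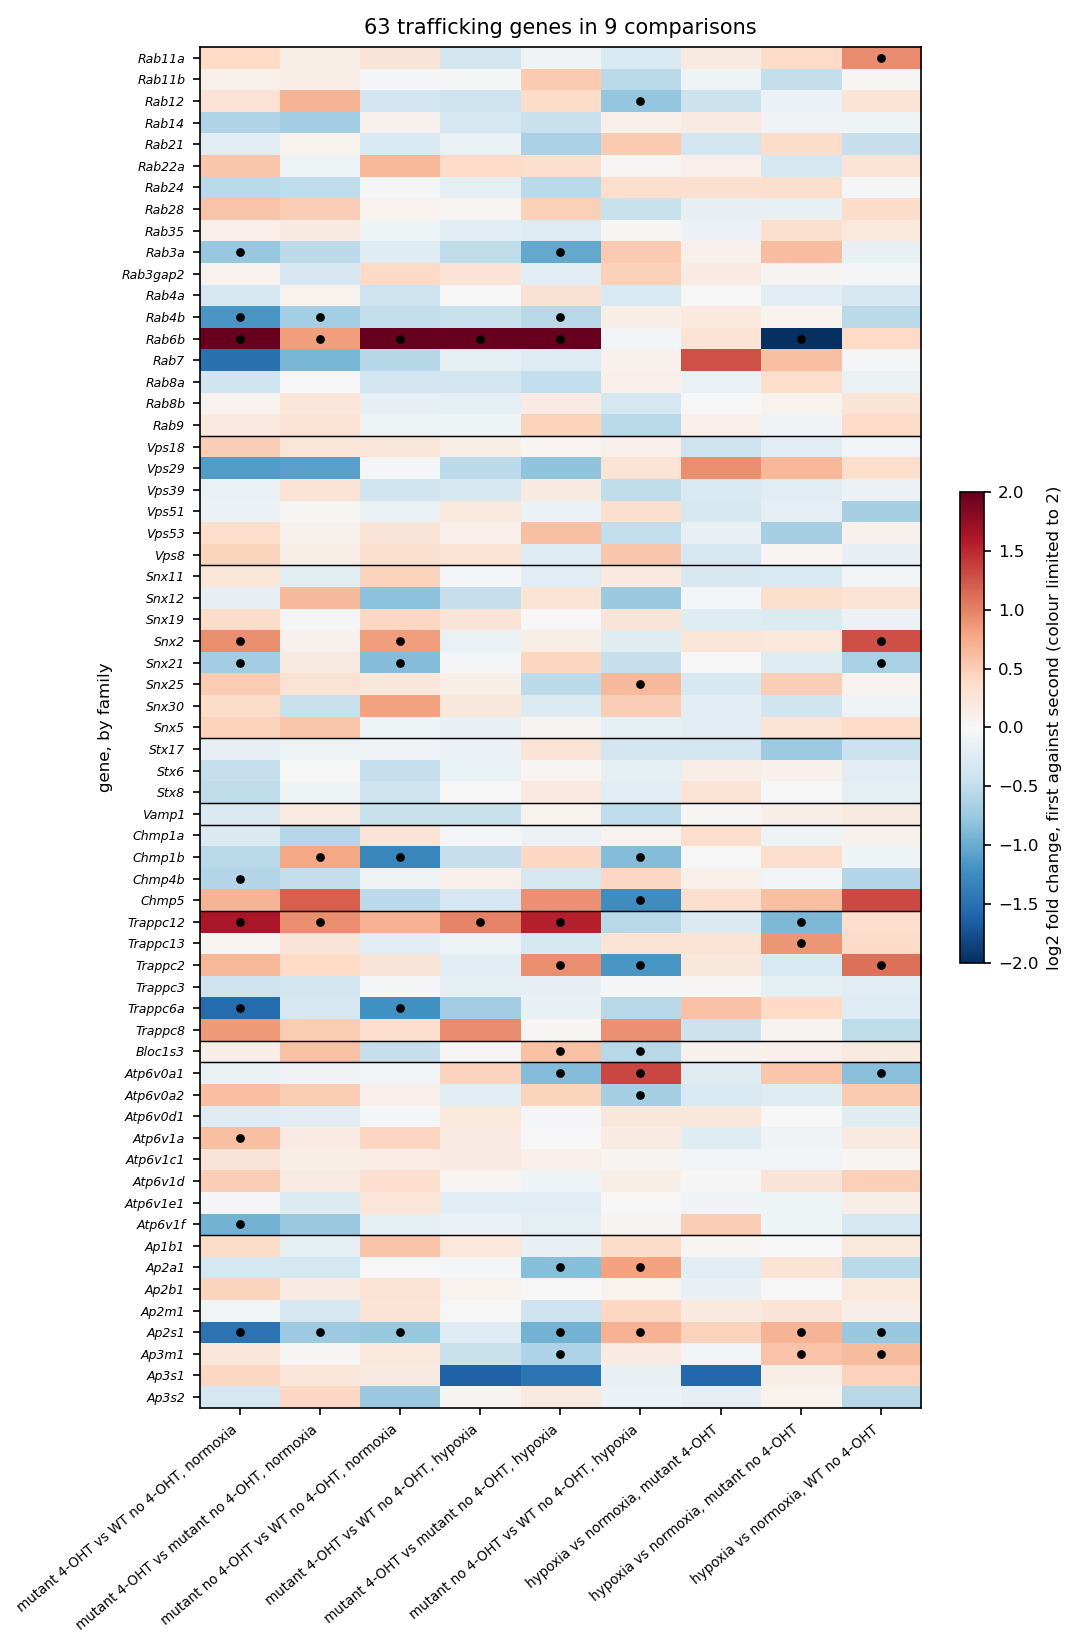
log2 fold change of the 63 trafficking genes (rows, grouped by family) in the 9 comparisons (columns), first group against second, with colour limited to 2 and a dot for each call at an adjusted p of 0.05. Rab6b, Trappc12 and Ap2s1 carry 6, 5 and 7 dots, and 40 rows carry none.

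Rab6b, a Golgi Rab and an isoform of Rab6 best known from brain, had the largest change of the Rab family. In normoxia its log2 signal was 5.34 and 5.49 in WT, 8.24 and 8.02 in mutant without 4-OHT, and 9.07 and 8.87 in mutant with 4-OHT. In hypoxia it was 5.59 and 6.03 in WT, 5.78 and 5.74 in mutant without 4-OHT, and 9.38 and 9.11 in mutant with 4-OHT. Both WT groups and the hypoxic mutant cultures without 4-OHT were thus low, the other 6 arrays were high, and the 2 sets did not overlap. Mutant with 4-OHT exceeded WT 11.8-fold in normoxia (log2 fold change 3.55, SE 0.19, adjusted p = 6.77e-07) and 10.9-fold in hypoxia (3.44, SE 0.19, adjusted p = 7.63e-07). Within the slides the normoxia difference was 3.73 and 3.38. Rab6b was above background on 1 of the 2 normoxic WT arrays, so the size of this fold is uncertain, and over all settings tried the log2 fold change ran from 1.995 to 4.11. Mutant without 4-OHT exceeded WT in normoxia (2.72, adjusted p = 5.33e-06) but not in hypoxia (-0.05), and the test of that difference gave -2.76 (SE 0.27, adjusted p = 0.000128). Between mutant cultures with and without 4-OHT the log2 fold change was 0.84 in normoxia (adjusted p = 0.0349) and 3.49 in hypoxia (adjusted p = 6.32e-07), a difference of 2.65 (adjusted p = 0.000158). In mutant without 4-OHT, Rab6b was 5.17-fold lower in hypoxia than in normoxia (-2.37, adjusted p = 1.61e-05). All of these held whichever array was left out, other than the normoxia change with 4-OHT, which was lost without any 1 of 7 arrays (both WT normoxia arrays, all 4 arrays of mutant without 4-OHT, and replicate 1 of mutant with 4-OHT in normoxia) and also with the authors' own normalized values, without the filter on dim probes, and with only the arrays compared in the fit. The 6 arrays high in Rab6b are the 6 arrays with the high muscle marker sum given above, and the part of muscle cells in this result was not tested. In mutant without 4-OHT that sum differed between the oxygen levels, so oxygen and culture make-up cannot be told apart there.

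The promoter of Rab6b is shown because this gene had the largest rise. The window runs from 250 bases before to 50 bases after the RefSeq start site (GRCm38.p6, chr9:103111824-103112123, + strand), printed 5′ to 3′.
Rab6b: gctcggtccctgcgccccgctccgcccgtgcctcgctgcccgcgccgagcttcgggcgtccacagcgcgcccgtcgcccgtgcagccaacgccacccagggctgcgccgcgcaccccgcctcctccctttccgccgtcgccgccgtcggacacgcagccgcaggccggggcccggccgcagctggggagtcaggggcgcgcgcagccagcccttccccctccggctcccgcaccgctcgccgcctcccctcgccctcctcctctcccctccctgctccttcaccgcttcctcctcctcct
Its GC content is 78.7%. Neither the E-box CACGTG, the lysosomal gene element core TCACGTGA, the pigment gene M-box TCATGTGA nor the cAMP response element TGACGTCA, which ATF and CREB factors bind, occurred in it on either strand.

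**Figure D3:**
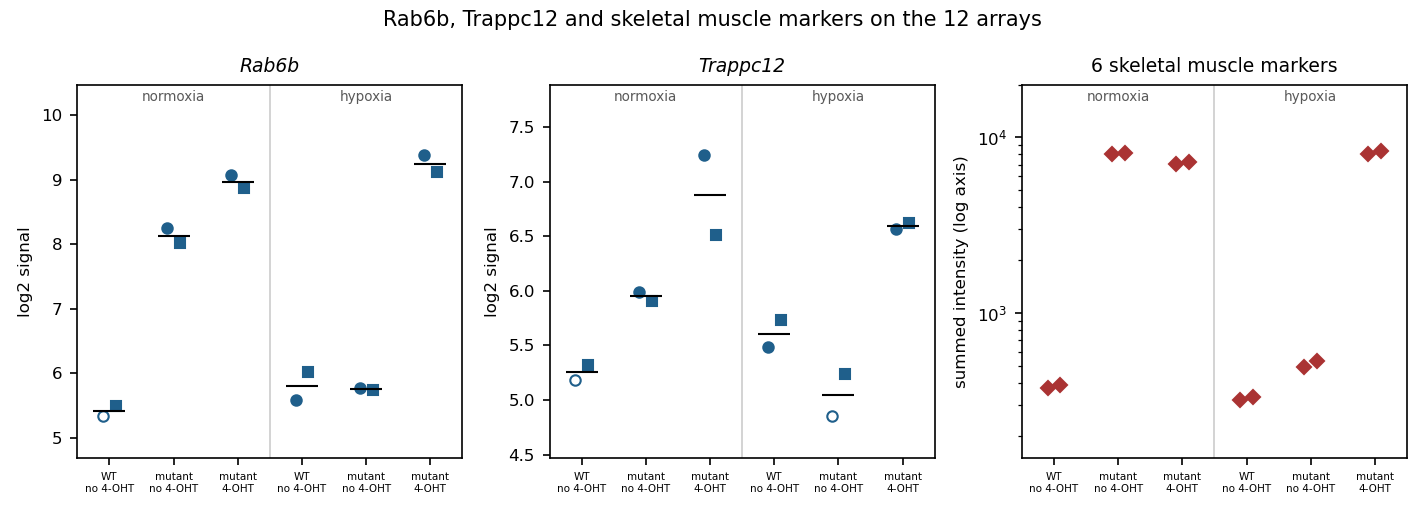
log2 signal of Rab6b and Trappc12 on each array (circle, replicate 1; square, replicate 2; open, not above background; line, mean of 2) and the summed intensity of 6 skeletal muscle markers on the same arrays (diamonds, log axis). The 3 groups with marker sums of 7049 to 8413 units are the groups in which Rab6b lies above 8.

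Among other Rab genes, the 2 that changed in more than 1 comparison fell. Rab4b, an early endosome Rab of receptor recycling, had log2 signals of 8.19 and 8.35 in WT, 7.96 and 7.60 in mutant without 4-OHT, and 7.11 and 7.09 in mutant with 4-OHT in normoxia. The mutant cultures with 4-OHT were the lowest and did not overlap with either group. Rab4b fell by 1.17 against WT (SE 0.17, adjusted p = 0.000881) and by 0.68 against mutant without 4-OHT (adjusted p = 0.0446). The first of these held whichever array was left out, and the second was lost with the background estimated from all probes and without any 1 of 8 arrays (all but replicate 2 of both normoxic mutant groups and the hypoxic mutant cultures with 4-OHT). Rab3a, a Rab of regulated secretion in neurons and melanocytes, had signals of 6.42 and 6.53 in hypoxic mutant cultures without 4-OHT and 5.39 and 5.51 with 4-OHT, a fall by 1.03 (SE 0.19, adjusted p = 0.00218) that held whichever array was left out. Over all settings the log2 fold change ran from -1.37 to -0.17, and 1 of the 2 arrays with 4-OHT was above background at each oxygen level. Its fall against WT in normoxia (-0.76, adjusted p = 0.0154) was lost without either WT normoxia array or without replicate 1 of mutant with 4-OHT.

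Rab12 and Rab11a were each called in 1 comparison. Rab12, a Rab of the recycling endosome, had signals of 6.93 and 7.03 in hypoxic WT and 6.30 and 6.11 in hypoxic mutant without 4-OHT (-0.77, adjusted p = 0.0397). Rab11a, which marks recycling endosomes and supplies cargo to melanosomes, rose in WT with hypoxia, from 4.66 and 4.85 to 5.44 and 5.95. Neither normoxic WT array was above background for Rab11a, so the rise was at least 1.83-fold (adjusted p = 0.0396). Both calls were lost without any 1 of 6 arrays (the 4 WT arrays and the hypoxic mutant cultures without 4-OHT) and without the filter on dim probes, that of Rab11a also with the authors' normalized values and with the background estimated from all probes.

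Other tested Rab genes from the set with melanosome roles passed no test. Rab11b had signals from 11.89 to 12.81, and its 9 log2 fold changes lay between -0.54 and 0.52. Those of Rab8a lay between -0.49 and 0.35, of Rab4a between -0.41 and 0.31, and of Rab22a, an early endosome Rab, between -0.36 and 0.66. With the slide as a block Rab8a was called lower with than without 4-OHT in hypoxia (-0.49, adjusted p = 0.045). Rab9, which returns receptors from late endosomes, was above background on 2 of 12 arrays, both of mutant with 4-OHT, so its differences are not given. Rab7, the Rab of late endosomes and late melanosomes, is described with the replicate arrays below. Rab27b reached at most 39.0 units and Rab5a 37.7 units, neither above background on any array. Rab27a, Rab32, Rab38, Rab1a and Rab17 have no probe that could be named here and were not analysed.

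TRAPP complexes tether transport vesicles at the Golgi and on the way to autophagosomes, and 4 of the 6 tested subunits passed in some comparison (50.1% of all probes did). Trappc12 had normoxia log2 signals of 5.18 and 5.32 in WT, 5.99 and 5.91 in mutant without 4-OHT, and 7.24 and 6.51 in mutant with 4-OHT. In hypoxia they were 5.49 and 5.73, 4.85 and 5.24, and 6.56 and 6.62 in the same order. Mutant cultures with 4-OHT were the highest at each oxygen level and overlapped with no other group of that level. Trappc12 was 3.09-fold higher than in WT in normoxia (log2 fold change 1.63, SE 0.24, adjusted p = 0.000884) and 2.92-fold higher than in mutant without 4-OHT in hypoxia (1.55, adjusted p = 0.000753). Both held whichever array was left out, while the hypoxia call was lost with the background estimated from all probes. Trappc12 was above background on 1 of 2 arrays in normoxic WT and on 1 of 2 in hypoxic mutant without 4-OHT, so these folds are uncertain, and over all settings the log2 fold changes ran from 0.32 to 2.14 and from 0.23 to 2.02. The rises of 0.93 over mutant without 4-OHT in normoxia (adjusted p = 0.047) and of 0.98 over WT in hypoxia (adjusted p = 0.0196), and the fall by 0.90 with hypoxia in mutant without 4-OHT (adjusted p = 0.031), were each lost without some arrays, the first without any but replicate 2 of mutant with 4-OHT in normoxia. The difference of mutant without 4-OHT from WT changed by -1.26 from normoxia to hypoxia (adjusted p = 0.0342), which was lost without any array of these 4 groups. Of the groups with a high muscle marker sum, all 3 had higher Trappc12 than the other 3 by their means, and the part of muscle cells was not tested.

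Trappc6a moved the other way. This subunit is known from a mouse mutant with mosaic loss of coat colour. Its normoxia signals were 9.33 and 9.32 in WT, 8.26 and 7.98 in mutant without 4-OHT, and 7.12 and 8.45 in mutant with 4-OHT, so all 4 mutant arrays lay below both WT arrays but the 2 arrays with 4-OHT were 1.33 apart. The fall against WT was 2.91-fold with 4-OHT (-1.54, SE 0.34, adjusted p = 0.00873) and 2.31-fold without (-1.21, adjusted p = 0.0364). Within the slides the first was -2.21 and -0.87. Both were lost without either WT normoxia array, and the second also without any hypoxic WT array or any array of mutant without 4-OHT. Both were also lost without the filter on dim probes. The first was lost with only the arrays compared in the fit, and the second with the authors' normalized values. In hypoxia the differences from WT were -0.70 (adjusted p = 0.237) and -0.55 (adjusted p = 0.269).

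Trappc2 lies on the X chromosome, where genotype and sex cannot be told apart in these cultures. It had hypoxia signals of 6.69 and 6.37 in WT, 5.44 and 5.30 in mutant without 4-OHT, and 6.28 and 6.32 in mutant with 4-OHT, so mutant without 4-OHT was lowest. The corresponding log2 fold changes were -1.16 against WT (adjusted p = 0.0133) and 0.93 with against without 4-OHT (adjusted p = 0.0313), and it rose by 1.11 with hypoxia in WT (adjusted p = 0.0347). Its difference between mutant without 4-OHT and WT changed by -1.42 from normoxia to hypoxia (adjusted p = 0.0437). Trappc13 rose with hypoxia in mutant without 4-OHT from 6.33 and 6.83 to 7.51 and 7.41 (0.88, adjusted p = 0.0349). These 5 calls were lost with the background estimated from all probes, without the filter on dim probes, and without 1 or more of the arrays compared. Trappc3 and Trappc8 passed no test, Trappc3 with differences of at most 0.41 between group means.

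Bloc1s3, a subunit of BLOC-1 whose loss lightens the mouse coat, was the only gene with a Bloc1s symbol that could be named. Its signals were 6.18 and 6.07 in hypoxic mutant cultures without 4-OHT, 6.68 and 6.68 in WT and 6.78 and 6.64 in mutant with 4-OHT, so the untreated mutant cultures were lowest. It was lower than in WT (-0.55, adjusted p = 0.0453) and higher with than without 4-OHT (0.58, adjusted p = 0.0333). In normoxia the same differences were -0.47 (adjusted p = 0.113) and 0.58 (adjusted p = 0.083). The rise with 4-OHT in hypoxia was lost without any 1 of 8 arrays, namely the 4 arrays compared and the 4 WT arrays, and the difference from WT without any WT array or any array of mutant without 4-OHT.

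Bloc1s3 and Trappc6a are divergent neighbours on chromosome 7. Their RefSeq start sites lie 300 bases apart and their promoter windows share 201 bases, which is why both are shown (GRCm38.p6, Trappc6a chr7:19508420-19508719, + strand; Bloc1s3 chr7:19508321-19508620, - strand; each 5′ to 3′ on its own strand, capitals mark TCACGTGA).
Trappc6a: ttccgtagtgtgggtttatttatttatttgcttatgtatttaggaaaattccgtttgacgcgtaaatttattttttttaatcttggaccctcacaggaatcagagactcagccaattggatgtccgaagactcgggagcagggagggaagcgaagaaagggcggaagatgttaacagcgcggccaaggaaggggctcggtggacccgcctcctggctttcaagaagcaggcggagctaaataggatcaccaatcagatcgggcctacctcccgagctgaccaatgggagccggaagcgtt
Bloc1s3: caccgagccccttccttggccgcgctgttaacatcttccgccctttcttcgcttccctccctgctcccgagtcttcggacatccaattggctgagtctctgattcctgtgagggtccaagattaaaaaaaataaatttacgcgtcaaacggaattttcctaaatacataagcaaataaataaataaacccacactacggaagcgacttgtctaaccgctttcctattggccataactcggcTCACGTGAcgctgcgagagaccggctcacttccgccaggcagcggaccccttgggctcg
The element begins at position -9 from the Bloc1s3 start site and lies outside the Trappc6a window. In mutant with 4-OHT against WT in normoxia Trappc6a was at -1.54 and Bloc1s3 at 0.12 (adjusted p = 0.679), so the neighbours differed in this comparison by their values. That difference was not tested.

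The AP adaptors sort cargo into clathrin and other coats. Ap2s1, the small subunit of the plasma membrane adaptor AP-2, passed in 7 of 9 comparisons, the most of any trafficking gene. Its normoxia signals were 10.85 and 10.82 in WT, 10.12 and 10.04 in mutant without 4-OHT, and 9.17 and 9.54 in mutant with 4-OHT. In hypoxia they were 10.06 and 10.09 in WT, 10.73 and 10.80 in mutant without 4-OHT, and 9.89 and 9.73 in mutant with 4-OHT. Mutant cultures with 4-OHT were lowest at both oxygen levels, and no 2 groups of 1 oxygen level overlapped. The fall against WT in normoxia was 2.79-fold (-1.48, SE 0.17, adjusted p = 0.000173) and that with against without 4-OHT was 1.66-fold in normoxia (-0.73, adjusted p = 0.0337) and 1.93-fold in hypoxia (-0.95, adjusted p = 0.00171). Mutant without 4-OHT was below WT in normoxia (-0.75, adjusted p = 0.0121) and above WT in hypoxia (0.69, adjusted p = 0.0129), and the test of this reversal gave 1.44 (SE 0.24, adjusted p = 0.00307). In hypoxia against normoxia Ap2s1 was lower in WT (-0.76, adjusted p = 0.0207) and higher in mutant without 4-OHT (0.68, adjusted p = 0.0228). The fall against WT with 4-OHT in normoxia, that with against without 4-OHT in hypoxia, and the reversal held whichever array was left out. The fall with against without 4-OHT in normoxia was lost with only the arrays compared in the fit. It was also lost without any WT array, any array of mutant without 4-OHT, or replicate 1 of mutant with 4-OHT in normoxia. The other calls were lost without any array of the groups compared.

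The Ap2s1 promoter is shown because this gene changed most often (GRCm38.p6, chr7:16738194-16738493, + strand, 5′ to 3′).
Ap2s1: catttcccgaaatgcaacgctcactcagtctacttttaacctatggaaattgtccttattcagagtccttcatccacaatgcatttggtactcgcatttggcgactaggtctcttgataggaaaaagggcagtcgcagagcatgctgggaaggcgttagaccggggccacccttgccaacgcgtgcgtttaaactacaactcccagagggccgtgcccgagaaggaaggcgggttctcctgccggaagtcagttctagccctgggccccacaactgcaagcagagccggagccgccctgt
It held none of the 4 motifs searched.

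Ap2a1, a large AP-2 subunit that binds cargo and accessory proteins, was called in the same direction as Ap2s1 in 2 hypoxia comparisons and in no normoxia comparison. In hypoxia its signals were 6.73 and 6.99 in WT, 7.71 and 7.62 in mutant without 4-OHT, and 6.58 and 7.06 in mutant with 4-OHT. Untreated mutant cultures were highest, by 0.81 over WT (adjusted p = 0.0173) and by 0.85 over mutant with 4-OHT (-0.85 with against without, adjusted p = 0.0112), and both calls were lost without either array of the untreated mutant or without replicate 1 of the group it was compared with. Ap2m1, the medium subunit, and Ap2b1, the beta subunit, passed no test, and their group means spanned 0.60 and 0.44. In hypoxia Ap2m1 lay 0.41 above WT in mutant without 4-OHT and at -0.41 with against without 4-OHT, neither past the threshold. In normoxia it was at -0.06 with 4-OHT against WT, beside -1.48 for Ap2s1. Ap2b1 was not above background on either normoxic WT array.

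Of AP-3, the adaptor that carries tyrosinase toward melanosomes, 3 subunits were tested. Ap3m1 was above background on 2 arrays, replicate 2 of hypoxic WT and replicate 2 of hypoxic mutant without 4-OHT. Its signals were 5.07 and 5.33 in hypoxic WT, 5.31 and 5.39 in hypoxic mutant without 4-OHT and 4.64 and 4.84 in hypoxic mutant with 4-OHT. It was called lower with than without 4-OHT in hypoxia, and higher with hypoxia in WT and in mutant without 4-OHT. It entered the tests only through these 2 arrays, both of groups in which it was called higher. The calls are therefore not support for a change, and their p-values are left out. No fold is given because 1 array of each higher group and both of each lower group were not above background. All 3 calls were lost with the background estimated from all probes, both rises also with the authors' normalized values, and the rise in mutant without 4-OHT also with no background correction. Leaving out each array in turn kept them in 9, 6 and 4 of 12 fits. Ap3s2 passed no test, with log2 fold changes from -0.74 to 0.41, but with the slide as a block it was called lower in mutant without 4-OHT than in WT in normoxia (-0.74, adjusted p = 0.0242). Ap3s1 also passed none and is described with the replicate arrays. Ap1b1, the beta subunit of the Golgi and endosome adaptor AP-1, lay 0.57 above WT in mutant without 4-OHT in normoxia (adjusted p = 0.0638; 0.0315 with the slide as a block). Ap1g1 and Ap1s2 were not above background on any array.

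**Figure D4:**
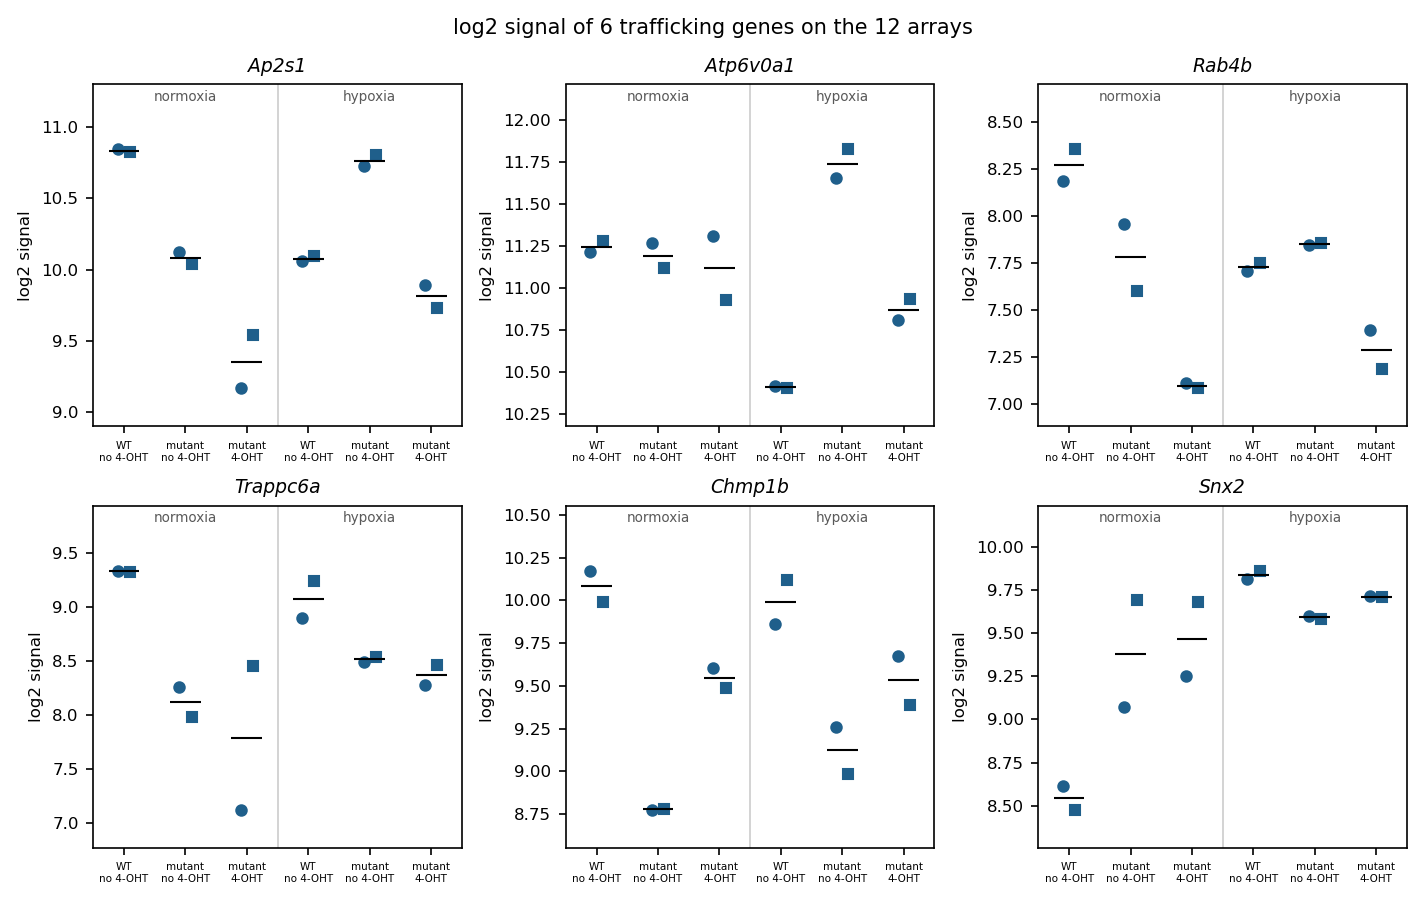
log2 signal of Ap2s1, Atp6v0a1, Rab4b, Trappc6a, Chmp1b and Snx2 on each array (circle, replicate 1; square, replicate 2; line, mean of 2; y axes differ). Ap2s1 is lowest in mutant with 4-OHT at both oxygen levels, and Chmp1b is lowest in mutant without 4-OHT.

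The V-ATPase joins a peripheral V1 sector, which splits ATP, to a membrane V0 sector, which passes protons. Of 8 tested subunit genes, 4 passed in some comparison (50.1% of all probes did). Atp6v0a1, an isoform of the V0 subunit that anchors the pump, had hypoxia signals of 10.41 and 10.40 in WT, 11.65 and 11.83 in mutant without 4-OHT, and 10.81 and 10.93 in mutant with 4-OHT, so the 3 groups did not overlap. In normoxia all 6 arrays lay between 10.93 and 11.31. Mutant without 4-OHT exceeded WT 2.52-fold in hypoxia (1.33, SE 0.17, adjusted p = 0.000362), with -0.05 in normoxia, and the difference between oxygen levels was 1.39 (SE 0.24, adjusted p = 0.0045). It was 1.83-fold lower with than without 4-OHT in hypoxia (-0.87, adjusted p = 0.00353). These 3 results held whichever array was left out. Hypoxia lowered it in WT (-0.84, adjusted p = 0.0159), which was lost without any WT array. A second, dimmer Atp6v0a1 probe gave 0.81 for the hypoxic mutant without 4-OHT against WT (adjusted p = 0.00957) and -0.68 for hypoxia in WT (adjusted p = 0.0443), but -0.53 for the hypoxic mutant with against without 4-OHT did not pass (adjusted p = 0.0532).

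The remaining V-ATPase subunits changed less. Atp6v0a2, the Golgi isoform of the same subunit, moved opposite to Atp6v0a1 in hypoxia, at 8.65 and 8.74 in WT and 8.09 and 7.96 in mutant without 4-OHT (-0.67, adjusted p = 0.0396). With the slide as a block it was also called higher in mutant with 4-OHT than in WT in normoxia (0.61, adjusted p = 0.0279). Atp6v1a, the catalytic V1 subunit, had normoxia signals of 8.78 and 8.75 in WT and 9.48 and 9.26 in mutant with 4-OHT (0.60, SE 0.15, adjusted p = 0.0171). Atp6v1f, a stalk subunit of V1, had 12.13 and 12.14 in WT and 10.89 and 11.49 in mutant with 4-OHT (-0.95, SE 0.22, adjusted p = 0.0111), so 2 subunits of 1 sector moved in opposite directions. All 3 calls were lost without either WT array of their oxygen level. That of Atp6v0a2 was also lost without either normoxic WT array and without either hypoxic array of mutant without 4-OHT. The background from all probes and leaving out the filter on dim probes lost it too. Those of Atp6v1a and Atp6v1f were lost with only the arrays compared in the fit. That of Atp6v1a was also lost without replicate 1 of mutant with 4-OHT in normoxia. Atp6v0d1, Atp6v1c1, Atp6v1d and Atp6v1e1 passed no test, and the group means of Atp6v1c1 spanned 0.26, the least of the 63 genes.

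Promoters of V-ATPase and other lysosomal genes are known for the palindromic element with the core TCACGTGA, bound by TFEB and by the melanocyte factor MITF. Of the 96 genes, 77 had a promoter window in the RefSeq table, and 7 of these (9.09%) held the element, against 246 of all 17492 protein-coding windows (1.41%). The 7 were Atp6v0d1, Atp6v1a, Bloc1s3, Rab21, Rab24, Rab5a and Stx6. The shorter E-box CACGTG, which every such element contains, was in 19.5% of the 77 windows and 8.91% of all, TCATGTGA in 3.9% and 1%, and TGACGTCA in 2.6% (Ap2b1 and Rab5a) and 2.54%. Of the 6 tested genes with the element, Atp6v1a and Bloc1s3 were called in some comparison and Atp6v0d1, Rab21, Rab24 and Stx6 in none. Over all 63 tested trafficking genes 36.5% were called in some comparison, and over all probes 50.1%. The V-ATPase windows that hold it are shown (GRCm38.p6, Atp6v1a chr16:44139210-44139509, - strand; Atp6v0d1 chr8:105566015-105566314, - strand; 5′ to 3′, capitals mark TCACGTGA).
Atp6v1a: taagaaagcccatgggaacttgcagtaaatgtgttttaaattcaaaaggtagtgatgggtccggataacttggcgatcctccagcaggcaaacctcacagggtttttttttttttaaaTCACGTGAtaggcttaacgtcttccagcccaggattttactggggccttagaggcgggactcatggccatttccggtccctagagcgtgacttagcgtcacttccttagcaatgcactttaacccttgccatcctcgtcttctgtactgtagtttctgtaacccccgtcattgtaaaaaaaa
Atp6v0d1: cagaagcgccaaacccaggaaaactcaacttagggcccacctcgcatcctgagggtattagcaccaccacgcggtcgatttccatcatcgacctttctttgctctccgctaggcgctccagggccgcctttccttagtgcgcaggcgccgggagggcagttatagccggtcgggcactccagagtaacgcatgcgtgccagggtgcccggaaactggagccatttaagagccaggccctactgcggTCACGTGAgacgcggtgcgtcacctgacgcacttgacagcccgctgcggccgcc
The element begins at position -132 from the Atp6v1a start site and at -4 from that of Atp6v0d1. Atp6v0d1 signals lay between 11.04 and 11.65 on all arrays.

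Sorting nexins bind endosomal membranes and return cargo from them. Snx2, a partner of the retromer coat, had normoxia signals of 8.61 and 8.48 in WT, 9.07 and 9.69 in mutant without 4-OHT, and 9.25 and 9.68 in mutant with 4-OHT, while the 6 hypoxia arrays lay between 9.58 and 9.86. The 2 normoxic WT arrays were thus the lowest of all 12. Snx2 was 1.90-fold higher with 4-OHT than in WT (0.92, SE 0.22, adjusted p = 0.0124), 1.78-fold higher in mutant without 4-OHT (0.84, adjusted p = 0.0269), and rose 2.45-fold with hypoxia in WT (1.29, SE 0.22, adjusted p = 0.00745). The difference of the mutant without 4-OHT from WT changed by -1.08 between oxygen levels (adjusted p = 0.0459). All 4 calls were lost without either of those 2 WT arrays.

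Snx21 fell where Snx2 rose. Its signals were 6.27 and 6.39 in normoxic WT and 5.07 to 5.80 on the other 10 arrays. The fall was 0.69 with 4-OHT (adjusted p = 0.0141), 0.86 without (adjusted p = 0.00573) and 0.65 with hypoxia in WT (adjusted p = 0.0358). The falls with 4-OHT and with hypoxia were lost without either WT normoxia array, and the fall in mutant without 4-OHT was lost without replicate 2 of that group of WT. Snx25 was higher in hypoxic mutant without 4-OHT, at 6.70 and 6.72 against 6.17 and 5.96 in WT (0.64, adjusted p = 0.0244), a call lost without any of these 4 arrays. Snx5, Snx11, Snx12, Snx19 and Snx30 passed no test, Snx11 with the brightest probe of the family at log2 fold changes from -0.32 to 0.45.

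ESCRT-III cuts vesicle necks from inside. Chmp1b, a subunit that recruits the microtubule-severing enzyme spastin, had normoxia signals of 10.17 and 9.99 in WT, 8.78 and 8.78 in mutant without 4-OHT, and 9.61 and 9.49 in mutant with 4-OHT. Untreated mutant cultures were lowest, those with 4-OHT were between, and the 3 groups did not overlap. Chmp1b was 2.47-fold lower than WT without 4-OHT (-1.30, SE 0.18, adjusted p = 0.000694), which held whichever array was left out, and 1.70-fold higher with than without 4-OHT (0.77, adjusted p = 0.0366), which was lost without any 1 of 9 arrays. In hypoxia it was 1.82-fold lower than WT in mutant without 4-OHT (-0.86, adjusted p = 0.00602), a call lost without replicate 2 of either group.

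The other Chmp genes changed in at most 1 comparison. Chmp4b, the main filament subunit, was at 10.71 and 10.69 in normoxic WT and 9.97 and 10.27 with 4-OHT (-0.58, adjusted p = 0.0407), and the call was lost with the authors' normalized values and without any 1 of 7 arrays. Chmp5 was at 7.16 and 7.08 in hypoxic WT and 5.86 and 5.90 in mutant without 4-OHT (-1.25, SE 0.41, adjusted p = 0.0498), and was lost without any 1 of 8 arrays. Chmp1a passed no test.

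By their brightest probes, none of the 3 Stx, 1 Vamp and 6 Vps genes tested passed in any of the 9 comparisons. Of all probes 50.1% passed in at least 1. Stx6 and Stx8, syntaxins of the Golgi and of late endosomes, had log2 fold changes of -0.47 and -0.50 in mutant with 4-OHT against WT in normoxia (adjusted p of Stx8 0.111). A second Stx8 probe was called in hypoxic mutant without 4-OHT against WT (-0.64, adjusted p = 0.0358), where the brighter probe gave -0.21. Stx17, a syntaxin of autophagosomes, and Vamp1 also passed no test. Vamp7, Stx3 and Stx12, which act in fusion with melanosomes, were not above background on any array, at no more than 51.1, 36.2 and 31.5 units. Of the Vps genes, Vps53 of the GARP tether had the brightest probe, and its log2 fold changes ranged from -0.66 to 0.61. Those of Vps18 and Vps39 of the HOPS tether ranged from -0.41 to 0.49 and from -0.50 to 0.27.

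Several large differences passed no test, in groups whose replicate arrays differed. Over the 63 genes the replicate arrays correlated at 0.997 in normoxic WT and at 0.932 in mutant with 4-OHT in normoxia, the lowest of the 6 groups. In that group 8 genes differed at least 2-fold between the arrays (Rab3gap2, Rab7, Trappc2, Trappc6a, Vps8, Vps29, Vps51 and Vps53), and in the other 5 groups at most 1 did. Rab7 read 7.85 and 10.47 there, against 9.92 to 10.81 on the other 10 arrays, and its log2 fold change against WT was -1.49 with an SE of 0.60 (adjusted p = 0.102). On the same 2 arrays Vps29, a retromer subunit, read 5.98 and 8.53, with the other 10 arrays between 7.99 and 9.21. Further probes of Rab7 gave 0.62 and 0.36 for that comparison (adjusted p = 0.0999 and 0.282), and correlated with the brightest probe at -0.41 and -0.06 over the 12 arrays. Ap3s1 read 5.37 and 9.05 in mutant with 4-OHT in hypoxia and 8.34 to 9.03 on the other 10 arrays (-1.61 against WT, SE 0.82, adjusted p = 0.27).

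**Figure D5:**
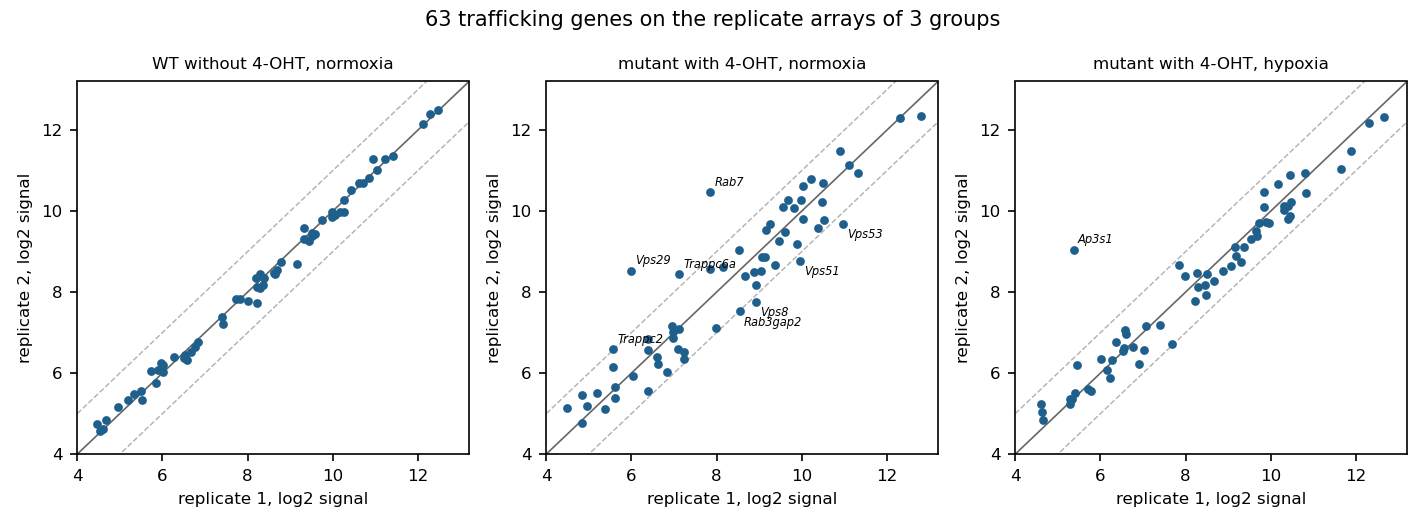
log2 signal of the 63 trafficking genes on replicate 1 (x) and replicate 2 (y) in 3 groups. The solid line marks equal values, dashed lines mark a 2-fold difference, and genes beyond them are named: 0 in normoxic WT, 8 in mutant with 4-OHT in normoxia and 1 (Ap3s1) in hypoxia.

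Genes of the same pathway outside these families were counted by list, beside 50.1% of all probes called in at least 1 comparison. Of 18 listed partners of melanosome biogenesis (HPS, BLOC and Rab27 effector genes among them) 4 were tested and 0 were called in the 9 comparisons, and of 25 listed SNARE genes and helpers 5 were tested and 0 were called. Of 30 coat genes 8 were tested, and Gga1, a Golgi clathrin adaptor, fell in mutant with 4-OHT against WT in normoxia. Of 12 other ESCRT genes 6 were tested, and in that comparison Stam2 rose and Snf8 fell, while Stam2 was also lower in mutant without 4-OHT than in WT in hypoxia and rose with hypoxia in WT. Of 24 lysosome genes 6 were tested, and Asah1, acid ceramidase, rose there, in mutant without 4-OHT against WT in normoxia, and with hypoxia in WT. Of the 4 pigment markers, Trpm1 was lower in mutant without 4-OHT than in WT in normoxia and higher with than without 4-OHT, and the others passed no test.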

How the data were processed

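Per the labels and the study's methods, total RNA was amplified to labelled cRNA and hybridised to Mouse-6 BeadChips. The deposited tables hold, per probe, a raw intensity from the authors' scanner software and a detection p-value, which the authors' software computed against the negative control beads, and the authors also deposited values normalized by cubic spline with the background subtracted, used here only as an alternative after a floor of 16 and log2. Here intensities were corrected for background by normexp (offset 16), with the background's mean and SD taken from the detection p-values, then quantile normalized and log2 transformed, so log2 values below come from the deposited intensity and fold changes of dim probes are understated. In the background estimate 5 probes with a detection p-value above 0 but under 1 step (1 in 1603) were left out, because with them the background SD was 100 to 178 units in place of 5.86 to 7.00. Array median intensities were 29.0 to 40.1 units and 10878 to 13032 of 46628 probes were above background; the number of arrays limits the precision.

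Probes were named by the number in their identifier, read as an NCBI gene ID. Of the 11857 numbers of 10000 or more, 82.6% belonged to a mouse gene in the RefSeq table (GRCm38.p6), against 46% after adding 1. Of probes so named, 79.3% of the 87 for ribosomal proteins and 0% of the 438 for olfactory and vomeronasal receptors were above background on all arrays. A gene is represented by its brightest tested probe. The 28 control probes were set aside, and probes under a detection p of 0.01 on no array were not tested, leaving 14906. A single limma model (limma 3.58.1, R 4.3.3) was fitted to the 12 arrays (6 groups of 2, 6 residual degrees of freedom), with Benjamini-Hochberg adjustment over the 14906 probes and a threshold of 0.05. On simulated data the same code recovered 1.49%, 46.3% and 92.4% of log2 changes of 0.5, 1 and 2 in the first comparison. Fewer probes were called there (96) than in the data (3404), which makes the adjustment stricter. A gene that passed no test is not shown to be unchanged. "At least" folds use the dimmest signal above background on each array in place of a probe not above background.

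Replicate 1 arrays shared one slide and replicate 2 arrays the other, per the labels. Deviations of same-numbered arrays from their group means correlated at -0.22 to 0.60 (median 0.198, 15 pairs, 12 over 0.1), and the replicate number as a block (the slide) was fitted as an alternative, reported where it changed a call. Promoters (250 bases before to 50 after each RefSeq start) were searched on both strands with Python 3.11.15. The genes and lists were chosen with earlier results of these data known. Genes were named by rule: up to 10 rises and 10 falls in the first comparison and up to 5 and 5 in the others, largest first among called genes whose groups did not overlap; those called in a difference between oxygen levels; the brightest per family; and a set with known melanosome roles. Further genes named for replicate disagreement or as uncalled family members were chosen after their values were seen.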

Additional observations from a re-analysis of the deposited data

Results flagged for a closer look

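The difference between 2 groups itself differed between normoxia and hypoxia for 6 trafficking genes, tested as the interaction of group and oxygen level in limma and adjusted over all probes. For mutant without 4-OHT against WT the change from normoxia to hypoxia was -2.76 for Rab6b (SE 0.27, adjusted p = 0.000128), 1.44 for Ap2s1 (adjusted p = 0.00307), 1.39 for Atp6v0a1 (adjusted p = 0.0045), -1.26 for Trappc12 (adjusted p = 0.0342), -1.42 for Trappc2 (adjusted p = 0.0437) and -1.08 for Snx2 (adjusted p = 0.0459), all on the log2 scale. For mutant with against without 4-OHT it was 2.65 for Rab6b (adjusted p = 0.000158). Rab6b, Ap2s1 and Atp6v0a1 kept their calls whichever array was left out, and the other 3 genes lost theirs without several single arrays. The muscle marker sum also moved with oxygen level, from 8033 to 8167 units in normoxic to 494 to 532 units in hypoxic mutant cultures without 4-OHT, and its part was not tested.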

How the results depend on the processing

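Among 61 named changes, 29 stayed called in each of the 8 alternatives that kept every array, 18 stayed called whichever array was left out, and none changed sign. Of the 61, 20 were lost without the filter on dim probes, 17 with the background from all probes and 13 with only the arrays compared. The authors' normalized values lost 6 and no background correction lost 4. Not every such loss is named with its gene above. The replicate block lost no named call and added 4 among the genes named for their role, given in the report, and counts of called trafficking genes with it (16, 7 and 9 in the normoxia comparisons, in the report's order) stayed within 1.5 times the main counts. With the background from all probes, the counts were 3 for mutant with against without 4-OHT in normoxia, 1 for mutant with 4-OHT against WT in hypoxia and 1 for the difference of the latter comparison between oxygen levels, which was also 1 without background correction and 1 without the filter. Without the filter on dim probes, the counts were 2 for mutant with against without 4-OHT in normoxia, 5 for mutant without 4-OHT against WT in hypoxia, 3 for hypoxia in mutant without 4-OHT and 3 for the difference of mutant without 4-OHT against WT. Fits of only the arrays compared called 4 for mutant with 4-OHT against WT in normoxia, 0 with against without 4-OHT in normoxia (7 at an unadjusted limma p under 0.05), 28 for mutant without 4-OHT against WT in hypoxia, 18 for hypoxia in WT and 12 for the difference of mutant without 4-OHT against WT.

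Leaving out single arrays (a lone array then taken to vary like the other groups) moved the counts from 4 to 23 for mutant with 4-OHT against WT in normoxia, 0 to 19 for mutant with against without 4-OHT and 2 to 11 for mutant without 4-OHT against WT. In hypoxia they ran from 1 to 4, 5 to 14 and 1 to 18. Hypoxia gave 0 to 9 in mutant with 4-OHT, 1 to 9 in mutant without and 0 to 9 in WT, and the differences between oxygen levels gave 0 to 7, 1 to 7 and 3 to 7. The highest counts came without replicate 1 or 2 of mutant with 4-OHT in normoxia. Probes near background bound what can be seen: 33 of the 96 genes had no signal above it on any array.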
